A study of Mus musculus with 10 samples.

Results

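The genes described here are 10 transcription factors of rod, cone and bipolar cell fate: Otx2, Crx, Nrl, Nr2e3, Neurod1, Rorb, Mef2d, Esrrb, Thrb and Rxrg. They were taken by name from a list of retinal fate factors, and all 10 were found among the 11702 genes of the table, passed the filter on low counts and were tested in every comparison. The study asked what halofantrine, an antimalarial drug, does to the degenerating retina of the rd10 mouse, which carries a missense mutation in the rod phosphodiesterase gene Pde6b. RNA was sequenced from 10 retinal libraries of female mice at P36, of which 4 were WT DMSO, 3 were rd10 DMSO and 3 were rd10 HAL. The rd10 mice came from an intercross of the B6.CXB1-Pde6brd10/J line, and the origin of the WT mice is not given in the sources used here. Every group had received intravitreal injections at P10 and P24, of 1 μL DMSO in WT DMSO and rd10 DMSO and of 20 μM halofantrine in rd10 HAL. WT DMSO (W1 to W4), 2 rd10 DMSO libraries (D1, D2) and 1 rd10 HAL library (H1) were labelled batch 1, while D3, H2 and H3 were labelled batch 2. The titles also carry set names: set1 for W1 to W3, set1_5 for W4, set2 for D1, D2 and H1, last_rd10 for H2 and H3, and final_rd10 for D3. What a set shares is not stated, and since no set holds both WT and rd10 libraries, set and genotype cannot be told apart. The labels do not say whether the libraries of a group came from separate litters or days, so p-values measure the spread between these libraries only.

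Photoreceptors and bipolar cells arise from progenitors that switch on Otx2, a homeodomain factor that in turn activates Crx, the homeodomain factor on which most photoreceptor genes depend. In cells that also make the leucine zipper protein NRL and its target, the orphan nuclear receptor NR2E3, rod genes are activated and cone genes are held back. Cones use the thyroid hormone receptor gene Thrb and the retinoid receptor gene Rxrg to set their opsins, and RORβ, NEUROD1, MEF2D and ESRRB act with these factors in differentiation and in the upkeep of mature photoreceptors.

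The library labelled WT W4 stood apart from its group. The summed level of 20 rod genes was 90642 to 95417 CPM (counts scaled to a common library total with the TMM factors of edgeR) in W1 to W3 and 4064 CPM in W4, against 5031 to 13987 CPM in the 6 rd10 libraries. Gnat1, the rod transducin gene, was at 14673 to 16102 CPM in W1 to W3, at 501 CPM in W4 and at 728 to 2025 CPM in rd10. The summed level of 10 gliosis genes was 178 to 199.7 CPM in W1 to W3, 1128 CPM in W4 and 1139 to 1432 CPM in rd10. W4 was kept under its label, and results that rest on it are given with and without it. W4 was singled out by photoreceptor genes like those tested, so p-values without it are no independent support. The total count ran from 15512212 to 38160436 per library. Because rd10 carries a missense mutation, the level of Pde6b mRNA is no check of genotype. Whole retina was sequenced, so fewer cells of a type and less RNA per cell cannot be told apart.

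Promoter sequences were read from RefSeq (GRCm38.p6) for the members, which matched 17 start sites of the 10 genes. Crx is shown because its window, in the 250 bases before the start on the minus strand of chr7:15879956-15880205, held the letters that CRX and OTX2 bind at 2 places. Its last 13 bases belong to an exon of a longer annotated Crx transcript. Rorb is shown because transcripts from its pair of starts lay on opposite sides of W1 to W3 in rd10, as described further on. The upstream start lies at chr19:19111197-19111446 outside the annotated Rorb transcripts (GENCODE M21), the downstream start at chr19:19001118-19001367 within an intron of the transcript Rorb-203, and both are on the minus strand. Each is printed 5′ to 3′ on the strand of the gene, and capitals mark TAATCC or its reverse GGATTA in Crx and the NRL site TGCTGA in Rorb.
Crx: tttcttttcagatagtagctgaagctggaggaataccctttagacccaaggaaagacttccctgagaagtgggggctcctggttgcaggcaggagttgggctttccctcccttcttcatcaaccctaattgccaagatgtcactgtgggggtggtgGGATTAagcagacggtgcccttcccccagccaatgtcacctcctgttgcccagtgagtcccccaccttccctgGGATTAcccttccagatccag
Rorb upstream start: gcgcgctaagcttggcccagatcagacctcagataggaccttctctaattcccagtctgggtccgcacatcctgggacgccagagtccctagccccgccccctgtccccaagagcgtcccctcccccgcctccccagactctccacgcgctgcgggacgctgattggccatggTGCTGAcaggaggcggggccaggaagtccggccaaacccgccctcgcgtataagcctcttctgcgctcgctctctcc
Rorb downstream start: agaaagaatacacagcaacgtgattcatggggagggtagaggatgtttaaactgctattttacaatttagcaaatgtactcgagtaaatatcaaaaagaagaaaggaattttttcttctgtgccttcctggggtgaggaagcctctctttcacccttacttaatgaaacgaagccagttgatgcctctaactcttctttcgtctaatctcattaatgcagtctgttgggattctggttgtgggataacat
In Crx the capitals start at -94 and -21 relative to the start site, both on the reverse strand. In the upstream Rorb window they start at -77 on the forward strand. The downstream Rorb window held none of the 4 motifs searched, which were the CRX and OTX2 motif TAATCC, the NRL site TGCTGA, the nuclear receptor site AGGTCA and the E-box CAGATG, each on both strands. Among 32851 mouse promoter windows of this length, TAATCC occurred in 6.25%, TGCTGA in 16.1%, AGGTCA in 14.02% and CAGATG in 14.4%. Of the 17 member windows, 3 held TAATCC (Crx, Otx2 and Thrb), 4 held TGCTGA (Otx2, Neurod1, Rorb and Mef2d), 2 held AGGTCA (Thrb and Rxrg) and 2 held CAGATG (Otx2 and Nrl). All 250 bases of the Nrl window lay in annotated exons, inside transcripts that start upstream of it, Nrl-203 among them. The sequence before the start of Nrl-203 was not searched. The Otx2 window with TAATCC also lay wholly in annotated exons. A match of letters is a description of the window and not of a bound site.

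The order of the members by transcript abundance was examined first, per length of transcript (TPM). In W1 to W3, Nrl was the highest member at 2097 to 2165 TPM, followed by Crx at 940.1 to 994 TPM and Nr2e3 at 736 to 807 TPM. Mef2d came next at 348 to 370.0 TPM, then Otx2 at 289 to 326 TPM, Neurod1 at 292 to 300.0 TPM and Esrrb at 225 to 299 TPM, and these last 3 members overlapped. Rorb was at 65.2 to 99.8 TPM, Thrb at 48.7 to 55.2 TPM and Rxrg at 7.9 to 11.5 TPM, without overlap between neighbours. In the rd10 libraries the order was different. Crx was the highest member in each of the 6, at 281 to 293 TPM in batch 1 and 373 to 398 TPM in batch 2. Nrl was the fifth member in batch 1, at 95.5 to 106 TPM, and the second or the third in batch 2, at 272 to 307 TPM. In batch 1 Otx2 was at 257 to 271 TPM and Mef2d at 239 to 265 TPM, below Crx and overlapping each other. In batch 2 Otx2 was at 283 to 290.2 TPM and Mef2d at 252 to 276 TPM. In W4 Otx2 was the highest member at 258 TPM, Crx was at 236 TPM and Nrl was the fifth at 77.1 TPM.

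**Figure D1:**
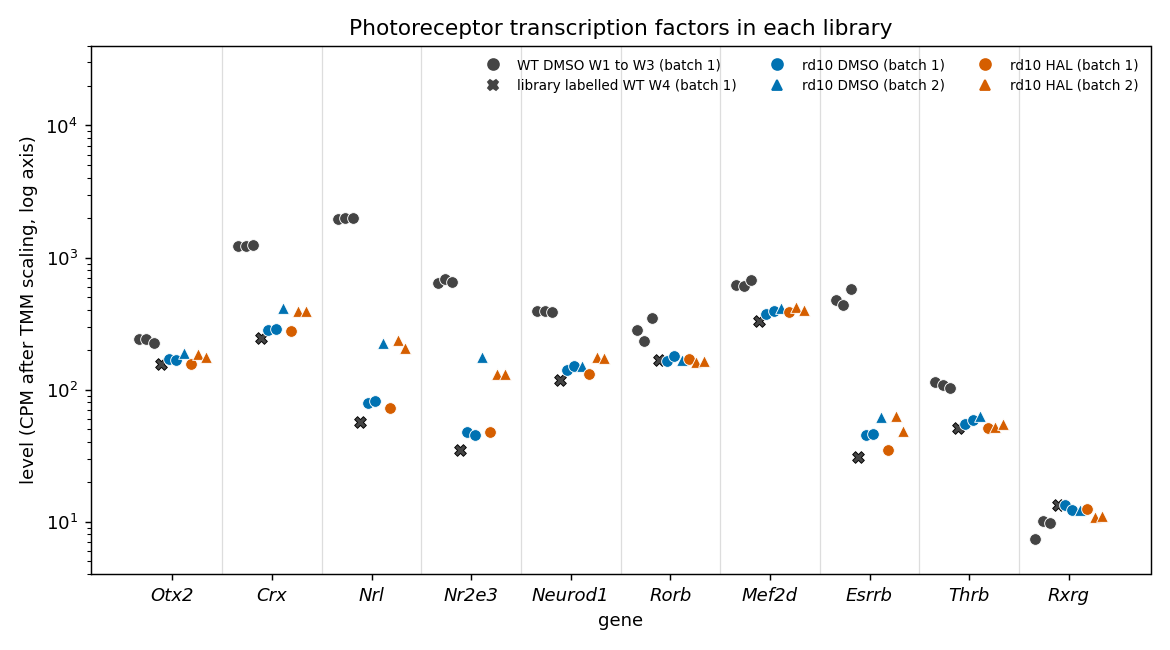
Levels of the 10 transcription factors in CPM (log axis) in each of the 10 libraries, coloured by group, with circles for batch 1, triangles for batch 2 and a cross for W4. In 9 members the rd10 libraries lie below W1 to W3, and in these W4 lies inside the rd10 range or below it.

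Of the factors at the head of the pathway, Otx2 lay nearest to W1 to W3 and Crx farther below. Otx2 (ENSMUSG00000021848) measured 239.6, 243 and 225 CPM in W1, W2 and W3 and 158 CPM in W4. Levels in rd10 DMSO were 169.8, 167 and 189 CPM and those in rd10 HAL were 157, 185 and 177 CPM. The rd10 libraries did not overlap W1 to W3, and W4 lay inside the rd10 range. Crx (ENSMUSG00000041578), its direct target, measured 1214, 1223 and 1248 CPM in W1, W2 and W3 and 246 CPM in W4. Levels of Crx were 281, 286 and 413 CPM in rd10 DMSO and 277, 393 and 391 CPM in rd10 HAL. The mean of Crx was 26.6% of the W1 to W3 mean in rd10 DMSO and 28.8% in rd10 HAL, and W4 at 20.0% was below every rd10 library.

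The rod factors showed the widest gap. Nrl (ENSMUSG00000040632) measured 1949, 1981 and 1987 CPM in W1, W2 and W3 and 57.3 CPM in W4. In rd10 DMSO it was at 79.3, 81.6 and 226 CPM and in rd10 HAL at 72.9, 236 and 205 CPM. This is 6.54% of the W1 to W3 mean in rd10 DMSO, 8.69% in rd10 HAL and 2.91% in W4, and the high rd10 libraries of both groups were those of batch 2. Nr2e3 (ENSMUSG00000032292), which NRL activates, measured 637, 688 and 651 CPM in W1, W2 and W3, 35.1 CPM in W4, 47.5, 45.0 and 177 CPM in rd10 DMSO and 48.1, 130.1 and 132 CPM in rd10 HAL. Its means were 13.6% and 15.7% of the W1 to W3 mean in rd10 DMSO and rd10 HAL. Esrrb (ENSMUSG00000021255), an orphan receptor expressed in rods under NRL, measured 479, 439 and 582 CPM in W1, W2 and W3, 30.7 CPM in W4, 45.2, 46.0 and 62.2 CPM in rd10 DMSO and 34.7, 62.9 and 48.2 CPM in rd10 HAL. Both rd10 means of Esrrb were near 10% of the W1 to W3 mean, at 10.2% and 9.71%.

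The factors that rods share with other retinal cells lay closer to W1 to W3. Neurod1 (ENSMUSG00000034701), a basic helix-loop-helix factor required for photoreceptor survival, was at 387 to 396 CPM in W1 to W3, 118 CPM in W4 and 131 to 177 CPM in rd10. Mef2d (ENSMUSG00000001419), a MADS-box factor that binds with CRX at photoreceptor enhancers, was at 613 to 677 CPM, 330.1 CPM and 372 to 424 CPM in the same order. Rorb (ENSMUSG00000036192), an orphan receptor that lies upstream of Nrl and is also used by horizontal and amacrine cells, was at 235 to 349 CPM in W1 to W3, 167 CPM in W4 and 162 to 181 CPM in rd10. The rd10 range of each of these 3 members lay below W1 to W3, at 37.7%, 61.6% and 59.3% of the W1 to W3 mean in rd10 DMSO for Neurod1, Mef2d and Rorb.

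The cone receptors differed from each other. Thrb (ENSMUSG00000021779) was at 102.7 to 114.98 CPM in W1 to W3, 51.0 CPM in W4 and 51.1 to 63.5 CPM in rd10, and its rd10 DMSO mean was 54.3% of the W1 to W3 mean. Rxrg (ENSMUSG00000015843) measured 7.35, 10.1 and 9.74 CPM in W1, W2 and W3, 13.3 CPM in W4, 13.3, 12.3 and 12.4 CPM in rd10 DMSO and 12.6, 10.9 and 11.1 CPM in rd10 HAL. It was the only member with every rd10 library above W1 to W3, which held for 3669 of all 11702 genes. Its counts were low, from 155 to 490 estimated reads per library. Arr3, the cone arrestin gene, was at 482 to 541 CPM in W1 to W3, 379 CPM in W4 and 447 to 707 CPM in rd10. In 9 of the 10 members, all 6 rd10 libraries were below W1 to W3. Across all genes this held for 32.3%.

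The comparison of rd10 DMSO with WT DMSO asked how the factors differ in the diseased retina without the drug. With all 4 WT libraries in the fit, no member and 0 of 11698 genes (0%) passed an adjusted p of 0.05 (edgeR quasi-likelihood test, Benjamini-Hochberg over all genes). At an unadjusted p under 0.05 there were 3108 genes, 7 of them members, and DESeq2 called 589 genes (5.04%), with Esrrb, Nrl and Crx among them. The log2 fold change was -3.53 ± 1.13 (SE) for Nrl, -2.90 ± 0.87 for Esrrb and -2.48 ± 1.01 for Nr2e3, each with an adjusted p of 0.187. Crx was at -1.59 ± 0.54, Neurod1 at -1.13 ± 0.40, Thrb at -0.68 ± 0.27 and Rorb at -0.59 ± 0.24, with the same adjusted p. Mef2d was at -0.51 ± 0.24, Otx2 at -0.30 ± 0.16 and Rxrg at 0.32 ± 0.21, with adjusted p of 0.195, 0.220 and 0.279. The median over the members was -0.90 and over all genes -0.02.

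Without W4 every member passed the edgeR test. Of the members 9 fell, against 29.9% of all genes, and 1 rose, against 32.3% of all genes. Nrl fell by 3.93 ± 0.43 on the log2 scale (adjusted p = 0.000201), Esrrb by 3.28 ± 0.16 (1.4e-05), Nr2e3 fell by 2.87 ± 0.53 (0.00239) and Crx by 1.90 ± 0.16 (6.06e-05). Neurod1 fell by 1.40 ± 0.06, Thrb by 0.87 ± 0.08, Rorb by 0.74 ± 0.13, Mef2d by 0.69 ± 0.08 and Otx2 by 0.42 ± 0.07, with adjusted p from 1.1e-05 to 0.00223. Rxrg rose by 0.49 ± 0.15 (adjusted p = 0.0204). The median over the members was then -1.13, and -0.01 over all genes. Within batch 1 and without W4 the fall was deeper for the rod factors, at -4.61 for Nrl, -3.83 for Nr2e3, -3.45 for Esrrb and -2.11 for Crx, and 9 members fell, against 35.9% of all genes, and 1 rose, against 36.5%.

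The comparison of rd10 HAL with WT DMSO used the same WT libraries, so its values stand beside the first and are no second line of evidence. With all 4 WT libraries, no member passed and 1 of 11699 genes (0.00855%) did. This gene, Gm45837, is no member and was named after its values were seen, with a log2 fold change of -8.58 ± 0.47 (adjusted p = 0.00428). An unadjusted p under 0.05 was reached by 4050 genes. Nrl was at -3.12 ± 1.11, Esrrb at -2.98 ± 0.90, Nr2e3 at -2.28 ± 0.94 and Crx at -1.47 ± 0.54, and the adjusted p of the members ran from 0.135 to 0.487. DESeq2 called 2221 genes (19%), of which 5 were members (Esrrb, Nrl, Thrb, Crx and Nr2e3). Without W4, 9 members fell, against 36.2% of all genes, and none rose, against 35.7% of all genes. Nrl fell by 3.52 ± 0.38, Esrrb by 3.36 ± 0.21, Nr2e3 by 2.67 ± 0.32 and Crx by 1.79 ± 0.13 in that fit, with adjusted p from 2.16e-06 to 8.41e-05. Rxrg was at 0.35 ± 0.14 with an adjusted p of 0.0516.

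**Figure D2:**
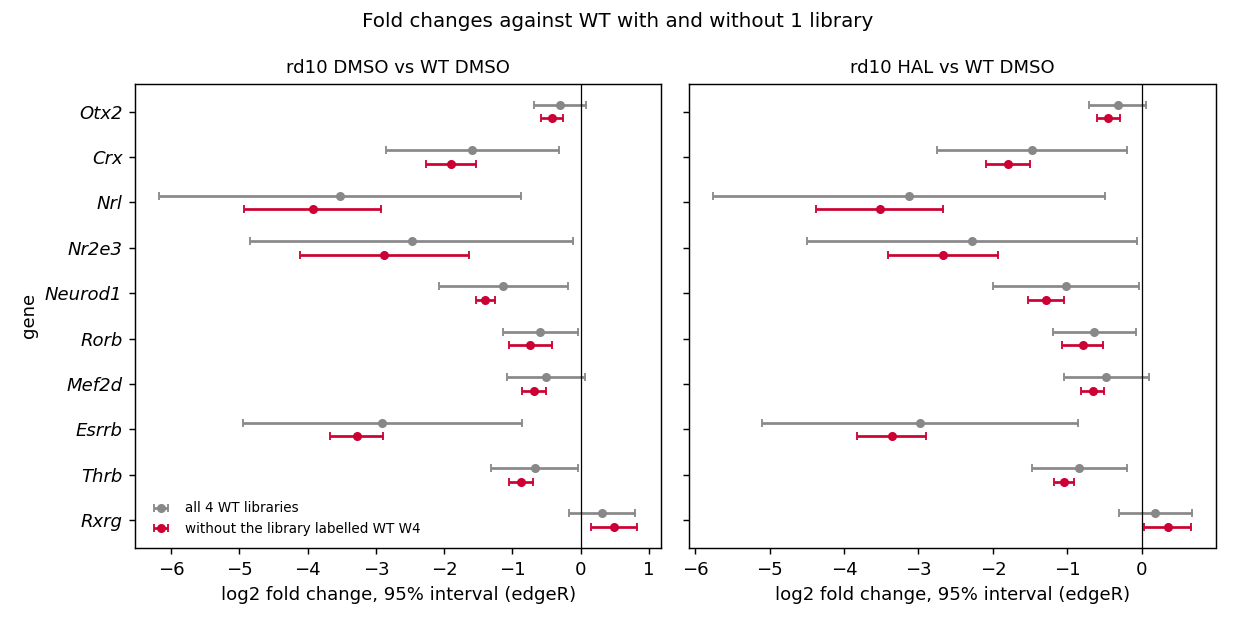
Log2 fold change of each member against WT DMSO for rd10 DMSO and rd10 HAL, with all 4 WT libraries and without the library labelled WT W4. Points are edgeR estimates and bars are 95% intervals, which are shorter without W4, and Nrl lies farthest from 0 in each panel.

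Genes of the same pathway were counted in the same fits. Without W4, where 32.3% of all genes rose and 29.9% fell, 19 of 20 rod genes fell in rd10 DMSO with a median log2 fold change of -3.21, and Pde6b fell by 3.63. All 12 genes common to rods and cones fell. Of 14 cone genes 5 rose and 5 fell, and of 18 cofactors that act with these factors 6 rose and 6 fell, shares near those of all genes. Arr3 was at -0.02. Samd11, a rod repressor of cone and other non-rod genes, fell by 2.97 (adjusted p = 0.000905). Samd7, its partner, was at -1.07 (adjusted p = 0.0989), with 38.1 and 46.4 CPM in D1 and D2 and 159 CPM in D3. Within batch 1, which leaves out D3, and without W4, Samd7 was at -1.99 (adjusted p = 3.92e-07). Prdm1, which keeps photoreceptor precursors from bipolar fate, fell by 1.47 and Pias3, a SUMO ligase that acts on NR2E3, fell by 1.66. Among 18 tested paralogs of the members 9 rose and 3 fell, with Maf, a relative of Nrl, rising by 1.06 and Nr2e1, a relative of Nr2e3, by 0.75. Mafg was at -0.08. With all 4 WT libraries no gene of these lists passed the edgeR test.

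Markers of other retinal cells were counted in the same way. In the fit without W4, where 32.3% of all genes rose, 12 of 17 bipolar genes, 16 of 17 amacrine and horizontal genes, 8 of 9 ganglion cell genes and 11 of 12 Müller glia genes rose and none fell. All 10 gliosis genes and all 6 microglia genes rose. The summed bipolar level was 2087 to 2230.0 CPM in W1 to W3, 3713 CPM in W4 and 3206 to 3937 CPM in rd10. Summed pigment epithelium genes ran from 75 to 363 CPM in W1 to W3 and from 184 to 739.6 CPM in rd10, and 3 of 9 rose, a share near that of all genes. No lens gene of 2 tested passed, and all 3 blood genes fell. Their part in the levels of the members was not tested.

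Ratios between members within a library do not depend on the scaling between libraries. The log2 ratio of Nrl to Crx was on average 0.68 in W1 to W3, -2.10 in W4, -1.85 in rd10 batch 1 and -0.85 in rd10 batch 2. Crx to Otx2 was at 2.38, 0.64, 0.77 and 1.12 in the same order. Thus Crx was lower relative to Otx2 and Nrl lower relative to Crx in each rd10 library than in W1 to W3. Nr2e3 to Nrl went the other way, at -1.58, -0.71, -0.73 and -0.62, and so did Mef2d to Crx, at -0.95, 0.42, 0.45 and 0.05. Esrrb to Nrl was at -1.99 in W1 to W3, -0.90 in W4 and in rd10 batch 1, and -1.95 in rd10 batch 2.

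Across 6 rd10 and 4 WT libraries, none of the 10 ratios passed (two-sided exact permutation test, Benjamini-Hochberg over 10 ratios). Thrb to Arr3 differed by -0.85 (exact permutation p = 0.00952, the smallest possible, adjusted p = 0.0952). Without W4, 6 of the 10 ratios reached the smallest p that exact permutation of 6 against 3 libraries allows, 0.0238 (adjusted p = 0.0397). These were Nrl/Crx (-2.03), Crx/Otx2 (-1.43), Thrb/Arr3 (-1.02), Nr2e3/Nrl (0.91), Mef2d/Crx (1.19) and Neurod1/Crx (0.52). In each of them but Thrb/Arr3, W4 was itself the distant WT library, so these p-values give no separate support. Between rd10 HAL and rd10 DMSO no ratio reached the smallest p that exact permutation of 3 against 3 libraries allows, 0.1. Esrrb/Nrl differed by -0.52 and Thrb/Arr3 by -0.35 (p = 0.2 for both in the exact permutation test), in groups that held the batches unevenly. Within batch 1 and batch 2, Esrrb/Nrl differed by -0.25 and -0.14 and Thrb/Arr3 by -0.07 and -0.58. The mean Esrrb/Nrl of the rd10 libraries was -0.90 in batch 1 and -1.95 in batch 2.

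**Figure D3:**
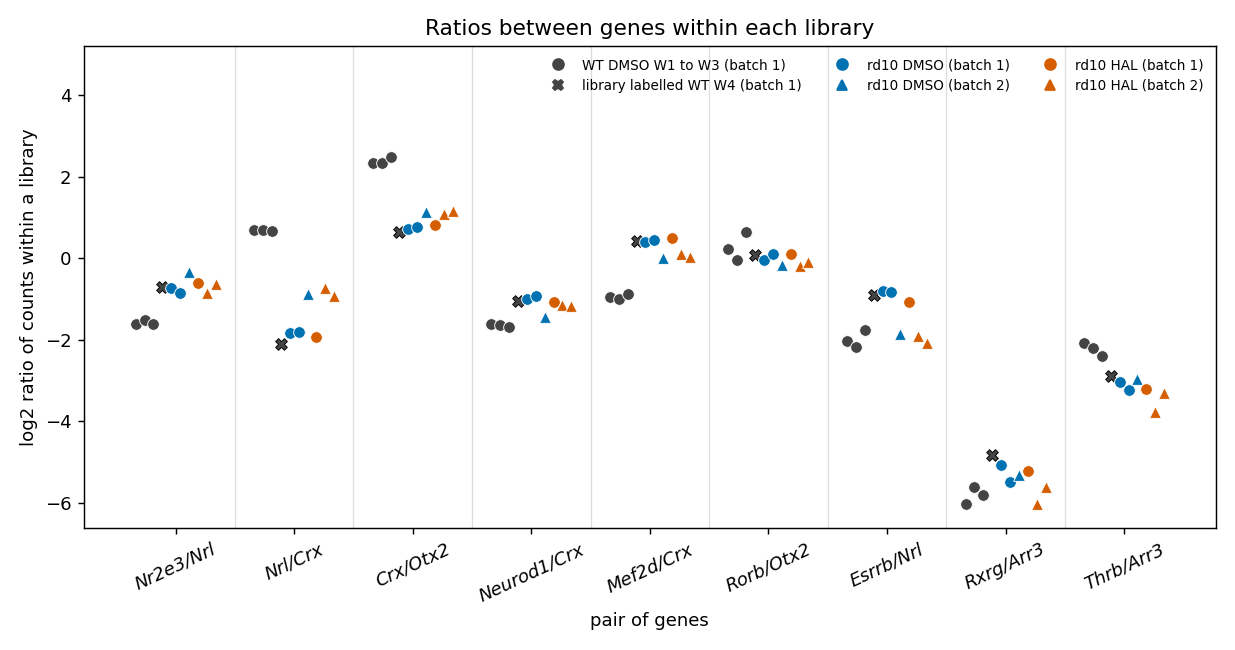
Log2 ratios between member genes, or between a member and Arr3, in each library. Nrl/Crx and Crx/Otx2 are lower and Mef2d/Crx higher in rd10 and in W4 than in W1 to W3.

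Transcripts of Rorb, Rxrg and Thrb start at separate promoters, and their levels were read from the estimated transcript counts. The upstream start of Rorb gives Rorb-203, the transcript of the RORβ1 form. It measured 66.0, 63.7 and 61.0 CPM in W1, W2 and W3, 114.9 CPM in W4, 108.5, 124.8 and 95.1 CPM in rd10 DMSO and 125.3, 106.5 and 115.1 CPM in rd10 HAL. The downstream start gives 4 transcripts led by Rorb-201, of the RORβ2 form that rods use. These summed to 214, 172 and 288 CPM in W1 to W3, 51.6 CPM in W4, 56.8, 55.8 and 72.05 CPM in rd10 DMSO and 44.1, 55.9 and 51.0 CPM in rd10 HAL. Relative to W1 to W3 the rd10 mean was 1.77-fold from the upstream start and 0.249-fold from the downstream start. Neither start had overlap between rd10 and W1 to W3, which at the gene level held for 63.7% of all genes. Gene-level Rorb, at 59.3% of W1 to W3 in rd10 DMSO, is the sum of both.

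The share of Rorb counts in Rorb-203 was 17.5% to 27.1% in W1 to W3, 69.01% in W4 and 56.9% to 74.0% in rd10. Averaged over 4 WT libraries it was 34.3% ± 23.5 (SD) against 66.7% ± 5.72 in 6 rd10 libraries (two-sided exact permutation p = 0.0381, adjusted p = 0.238 over 25 shares). Without W4 the difference was 44.0 percentage points (exact permutation p = 0.0238, the smallest possible, adjusted p = 0.0992). None of the 25 transcript shares of the members passed in either set. With all libraries, Otx2-202 differed between rd10 and WT by 3.89 points and Nr2e3-203 by -3.25 points (p = 0.00952 for both in the exact permutation test, adjusted p = 0.119). Shares between rd10 HAL and rd10 DMSO all had an adjusted p of 0.417 or more. Estimates of transcripts that share exons are less certain than gene totals.

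Rxrg and Thrb also have separate starts. The shorter Rxrg-202, from the downstream start, was at 1.48 to 2.33 CPM in W1 to W3, 5.57 CPM in W4 and 3.08 to 5.89 CPM in rd10, or 2.17-fold of W1 to W3 in rd10. Transcripts of the upstream Rxrg start were at 5.87 to 7.85 CPM in W1 to W3 and 6.47 to 8.99 CPM in rd10, and these ranges overlapped. For Thrb, transcripts of the upstream starts were at 31.6 to 42.2 CPM in W1 to W3 and 12.7 to 22.7 CPM in rd10. Thrb-202, from an internal start, was at 69.1 to 71.8 CPM and 36.2 to 44.7 CPM, so both kinds of Thrb transcript were lower in rd10. Esrrb-203 made up nearly all Esrrb counts in each library, and Neurod1 has a single transcript here.

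**Figure D4:**
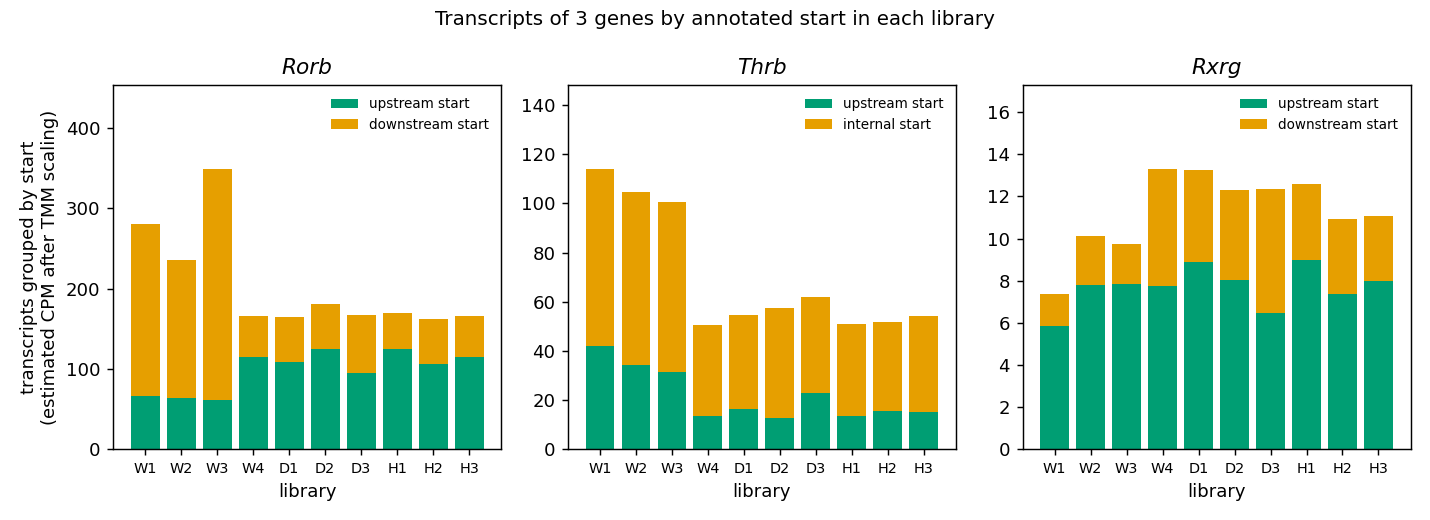
Stacked bars of the summed CPM of transcripts from the upstream and the downstream or internal start of Rorb, Thrb and Rxrg in each library, each gene on its own axis. For Rorb the downstream part is the larger in W1 to W3 and the upstream part the larger in W4 and in all 6 rd10 libraries.

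Halofantrine was compared with DMSO within rd10. No member and 0 of 11692 genes (0%) passed the edgeR test. At an unadjusted p under 0.05 there were 557 genes, none of them members. DESeq2 called 3 genes, Gm42047, ENSMUSG00000118841 and ENSMUSG00000118866, which are no members and were named after their values were seen. The estimate for Nrl was a log2 fold change of 0.42 with a 95% interval of -0.83 to 1.67, and for Nr2e3 0.21 with an interval of -1.20 to 1.62. Crx was at 0.11 (-0.33 to 0.56), Esrrb at -0.07 (-0.59 to 0.45) and Neurod1 at 0.12 (-0.16 to 0.39). The intervals were narrower for the other members, with Otx2 at -0.02 (-0.22 to 0.18), Mef2d at 0.04 (-0.12 to 0.19), Rorb at -0.05 (-0.19 to 0.10), Rxrg at -0.14 (-0.38 to 0.11) and Thrb at -0.16 (-0.33 to 0.01). In none of the 10 members did the 3 rd10 HAL libraries separate from the 3 rd10 DMSO libraries, against 13.1% of all genes.

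The groups held the batches unevenly, with 2 rd10 DMSO libraries and 1 rd10 HAL library in batch 1. Inside batch 1, H1 minus the mean of D1 and D2 was -0.14 for Nrl on the log2 scale, -0.03 for Crx, 0.06 for Nr2e3 and -0.39 for Esrrb. Inside batch 2, the mean of H2 and H3 minus D3 was -0.04 for Nrl, -0.08 for Crx, -0.44 for Nr2e3 and -0.18 for Esrrb. Thrb was at -0.14 and -0.25 and Otx2 at -0.11 and -0.06. For both genes and for Crx, the halofantrine libraries of each batch were below its DMSO libraries. The share of all genes that did so was not counted. Rorb and Rxrg, like Nrl and Esrrb, were also below 0 in both batches, with some overlap between the groups. Without D3, the rd10 DMSO library of batch 2, Nrl was at 1.10 and Nr2e3 at 1.17, and neither passed. With batch as a term in the edgeR fit, Nrl was at -0.09, Crx at -0.05 and Nr2e3 at -0.20, so these 3 estimates turned sign. Thrb was then at -0.20 (adjusted p = 0.269) and Esrrb at -0.28 (adjusted p = 0.288), both among the 1943 genes with an unadjusted p under 0.05 in edgeR, and 0 genes passed after adjustment.

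The libraries of batch 2 held more RNA of the rod factors than those of batch 1. With treatment as a term, 4 members were higher in batch 2, against 3.09% of all genes, and none was lower, against 1.55%. Nr2e3 was higher by 1.69 ± 0.11 on the log2 scale (adjusted p = 0.00105, edgeR), Nrl by 1.54 ± 0.07 (0.000834), Esrrb by 0.56 ± 0.11 (0.0408) and Crx by 0.52 ± 0.05 (0.0024). In the fit of all 10 libraries, which takes one estimate of the spread with W4 included, none of the 4 passed (adjusted p from 0.840 to 0.912, edgeR). Esrrb no longer passed when D1, D2, D3 or H1 was left out, with adjusted p from 0.0720 to 0.127. With limma-voom and without the treatment term 3 members passed, and Esrrb was not among them. Nrl had a mean of 77.9 ± 4.54 CPM (SD, n = 3) in batch 1 and 222 ± 15.7 CPM (n = 3) in batch 2, and Nr2e3 of 46.9 ± 1.64 and 146 ± 26.8 CPM. Otx2 was at 0.18 (adjusted p = 0.0755), Neurod1 at 0.23 (0.146), Thrb at 0.11 (0.258), Mef2d at 0.10 (0.236), Rorb at -0.05 (0.581) and Rxrg at -0.12 (0.456). In 6 members, namely Otx2, Crx, Nrl, Nr2e3, Mef2d and Esrrb, all 3 batch 2 libraries were above all 3 of batch 1, against 14.6% of all genes.

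Rod genes moved with these factors. All 20 of the rod list were higher in batch 2, Pde6b by 1.36 (adjusted p = 0.00554), and 4 of 14 cone genes passed as higher. Opn1sw, the short-wave cone opsin gene, was higher by 1.15 (adjusted p = 0.00505), with 138 to 187 CPM in the rd10 libraries of batch 1 and 360 to 448 CPM in batch 2, and Arr3 was at 0.19 (adjusted p = 0.416). Of the cone genes 11 had a value above 0 and 10 an unadjusted edgeR p under 0.05. Among all 11698 genes tested these numbers were 5618 and 3225. Of the genes common to rods and cones 8 of 12 were higher, as were 5 of 18 cofactors. Lower in batch 2 were 3 of 17 bipolar, 2 of 17 amacrine or horizontal and 2 of 12 Müller glia genes and 1 of 18 paralogs. Of all genes, 3.09% were higher and 1.55% lower. Of 10 gliosis genes 2 were higher and 1 lower. The summed level of 3 blood genes was 96.5 CPM in H2 and 79.6 CPM in H3, and 11.8 to 30.8 CPM in the other rd10 libraries. The summed level of 3 lens genes was 5.54 CPM in D3, 22.5 CPM in H2 and 0.21 CPM in H3, against 0.287 to 0.477 CPM in the rd10 libraries of batch 1. The part of either in the batch difference was not tested. Batch 2 holds no WT library, so the difference between batches could be measured in rd10 alone. In batch 2 the DMSO library and the halofantrine libraries bear different set names, so set and drug cannot be told apart there.

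**Figure D5:**
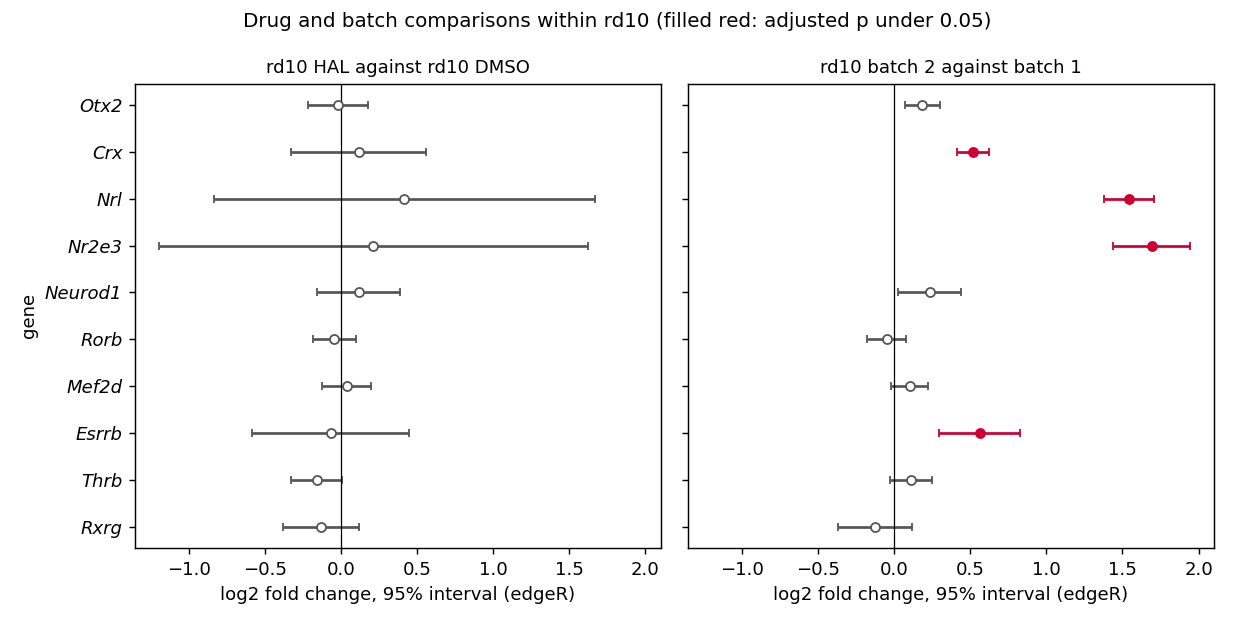
Log2 fold change of each member in rd10 for halofantrine against DMSO (left) and for batch 2 against batch 1 (right), with edgeR estimates as points and 95% intervals as bars, filled red at an adjusted p under 0.05. The drug intervals all include 0 and are widest for Nrl and Nr2e3, and the batch values passed for Nrl, Nr2e3, Crx and Esrrb.

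Genes with the most similar pattern were sought among all tested genes by the root mean square difference of centred log2 CPM, over the 10 libraries and over the 6 rd10 libraries. For Nrl they included Pde6b (0.181) and Gnat1 (0.187) over 10 libraries, both rod phototransduction genes, and Cnga1 and Samd11 over rd10. Nr2e3 was closest to Samd11 (0.146) and Cnga1 (0.178) over 10 libraries, and Samd11 and Cnga1 were also among the nearest over rd10. Crx was closest to Lyar (0.048), Heatr5a (0.059) and Tmem136 (0.067), and Esrrb to Cdr2 (0.170), Mef2c (0.178), a paralog of Mef2d, and Nxnl2 (0.201). For Otx2 the nearest gene was Stk39, for Neurod1 C2cd2l, for Rorb A930033H14Rik, for Mef2d 2700049A03Rik, for Thrb Gm45902 and for Rxrg Gpr155. No member was among the 3 nearest genes of another.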

How the data were processed

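Stranded polyA libraries of whole retina were sequenced. Per the study's methods and the submitters' processing notes, which name Kallisto, edgeR, limma and GRCm39, reads were pseudoaligned to Ensembl release 115 transcripts and summarised with tximport (versions not given in the sources used here). The authors deposited estimated counts per gene (11702 genes, 11492 with a symbol) and per transcript (275112), and a scaled signal they call CPM, which sums to 943804 to 1127682 per library and was not used for tests. A deposited table of fold changes and p-values was not used. Of the transcript counts, 97.4% to 97.7% were matched to annotated transcripts. Estimated counts were rounded, filtered (filterByExpr), scaled (TMM) and tested in edgeR 4.0.16 under R 4.3.3, with batch or treatment as stated and Benjamini-Hochberg adjustment over all genes at 0.05. The SE is the log2 fold change over the square root of F, and intervals use edgeR's total degrees of freedom.

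CPM was computed from the counts over 10 libraries (log2 with a prior count of 2). TPM used GENCODE M21 transcript lengths. Ratios had 0.5 added to each count, and transcript shares of at least 5% were kept. No pair of libraries of the same group agreed within sampling noise (chi-square per gene 4.48 or more). Pairs from different groups, such as W4 with an rd10 library, were not compared. The fits were also run on simulated counts to check the code, with a fixed spread that was not taken from these libraries. DESeq2 1.42.0, limma-voom (limma 3.58.1), other scaling, filters, models and leaving out each library were alternatives, of which the 9-library fit and the batch 1 fit without W4 were chosen after seeing the data. Named genes are all members, the first 4 tested genes of each marker, cofactor and paralog list (fewer are printed here), Pde6b and Arr3, and the 3 genes nearest each member. Results on some named genes, 1 of the 10 ratios among them, are not reported here. The members and lists were chosen with earlier results of these data known. The RefSeq and GENCODE builds differ from GRCm39, so coordinates apply to the promoters shown and to no other value.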

Additional observations from a re-analysis of the deposited data

Results flagged for a closer look

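Among the 4 WT libraries, 45 levels, ratios and shares were tested for a library far from the others by Dixon's ratio of gap to range (critical value 0.829), and 13 exceeded it. Chance alone gives about 1 in 20. The library labelled WT W4 was the distant one in the levels of Nrl (0.98), Crx (0.967), Neurod1 (0.966) and Nr2e3 (0.922). It was also the distant one in the ratios Nrl/Crx (0.991), Crx/Otx2 (0.925), Mef2d/Crx (0.92), Nr2e3/Nrl (0.903) and Neurod1/Crx (0.884). Of the transcript shares it was the distant one for Nrl-201 (0.921), Nrl-203 (0.855) and Rxrg-202 (0.843), and for Otx2-204 (0.929) W3 was. The values in which W4 was distant share that library, so they are not separate observations.

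For Nr2e3 and Neurod1, every halofantrine library lay on one side of every DMSO library of its batch in batch 1 and on the other side in batch 2. For Nr2e3 the value in batch 2 minus that in batch 1 was -0.496 on the log2 scale, and for Neurod1 it was 0.368. Each batch has 1 library in one of the groups, and the difference between batches was not tested. With so few libraries such a pattern can arise by chance, and the share of all genes that show it was not counted.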

How the results depend on the processing

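No paired analysis was possible because replicate numbers only follow accession order and pair no libraries across groups. Batch was fitted as a term in its place where both groups held both batches. The direction of every member against WT DMSO was the same under the alternatives run in both comparisons. The calls were not. In rd10 DMSO against WT DMSO, the number of genes passing was 0 with all 7 libraries, 589 with DESeq2 (3 members), 7280 without W4 (10 members), 7753 in the 9-library fit (10 members) and 8460 within batch 1 without W4 (10 members). Leaving out any other library gave 0 genes and 0 members, so the range was 0 to 7280 genes and 0 to 10 members. In rd10 HAL against WT DMSO the count was 1 with all 7 libraries, 2221 with DESeq2 (5 members), 0 with limma-voom and with all 10 libraries in one fit, 7787 in the 9-library fit (10 members), 7625 within batch 1 without W4 (9 members), and 0 to 8408 genes and 0 to 9 members when a library was left out. Ratios that passed between rd10 and WT numbered 0 to 6 when a library was left out, with 6 without W4.

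In rd10 HAL against rd10 DMSO, DESeq2 called 3 genes, and leaving out a library gave 0 to 7 genes, with 1 gene without D1 and 7 without D2, none of them members. Between the batches 542 genes passed, against 1419 with DESeq2, 218 without the treatment term, 1414 in the 9-library fit, 0 with all 10 libraries in one fit (0 members), and 91 (without D3) to 2638 (without H1) when a library was left out. Members that passed there numbered 3 to 5 under the other alternatives, and Nrl, Nr2e3 and Crx passed in each except the fit of all 10 libraries.

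Signs turned in some estimates, among them the 2 largest of the members under halofantrine, 0.416 for Nrl and 0.212 for Nr2e3. For halofantrine against DMSO, batch as a term gave -0.0544 for Crx, -0.0891 for Nrl and -0.199 for Nr2e3. Leaving out a library gave -0.0725 to 0.0451 for Otx2, -0.113 to 1.17 for Nr2e3, -0.00138 to 0.0849 for Mef2d and -0.30 to 0.121 for Esrrb. Against WT DMSO, Arr3 ran from -0.0219 to 0.142 when a library was left out, with -0.0330 in the 9-library fit and -0.0155 within batch 1 without W4. Mafg ran from -0.0995 to 0.0785, with 0.130 under scaling by library size alone and 0.0201 within batch 1 without W4. Arr3 between batches ran from -0.0244 to 0.410, and the log2 ratio Rxrg/Arr3 between rd10 and WT from -0.0365 to 0.363. Scaling by library size alone moved the median of all genes against WT to 0.14. The causes were not tested.

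With 3 or 4 libraries a group, the intervals for Nrl and Nr2e3 under halofantrine reach more than 1 log2 unit from 0, above it for Nrl and on both sides for Nr2e3. Exact permutation of 3 against 3 libraries cannot go below 0.1. The count of Rxrg limits its precision and that of its transcripts.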
